A study of Mus musculus with 27 samples.

Results

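The genes described here are 7 markers of megakaryocytes and platelets: Pf4, Ppbp, Itga2b, Itgb3, Gp5, Gp9 and Treml1. They were chosen by name from the platform's gene symbols, with earlier results of these data already known, and make up 7 of the 19935 genes measured. Each was read by 1 probe set, so no choice between probe sets was needed. Total RNA of E11.5 mouse hearts, a stage of mid-gestation when the chambers are forming, was hybridised to 27 Affymetrix arrays, 1 per sample, and the values are log2 signals. The groups were hearts heterozygous for a deletion of Brg1 (n = 6), of Tbx5 (n = 5) or of Nkx2-5 (n = 4), compound heterozygotes for Tbx5 and Brg1 (n = 3) or for Nkx2-5 and Brg1 (n = 3), and wild type (n = 6). All 6 groups had the same mixed strain background (C57Bl/6/BLKSW mix). The labels name dissected hearts and no sorting of cells, and nothing there says how many embryos gave each sample, so the p-values measure the spread between these samples. Brg1, encoded by Smarca4, is the motor subunit of BAF, a complex that remodels chromatin. Both Tbx5 and Nkx2-5 are DNA-binding factors that direct heart formation.

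Megakaryocytes are the large blood cells of the bone marrow, and in the embryo of the yolk sac and liver, that shed platelets into the circulation. They share a progenitor with red blood cells and use several of the same transcription factors, among them Gata1 and Tal1. They are blood cells and not a lineage of the heart wall, whose chambers hold circulating blood at this stage.

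Pf4 and Ppbp are chemokines stored in platelet alpha granules and released on activation. Itga2b and Itgb3 encode the subunits of the fibrinogen receptor, the integrin through which platelets aggregate, and Itga2b also marks early blood progenitors. Gp9 and Gp5 belong to the receptor complex for von Willebrand factor, which captures platelets on exposed vessel walls. Treml1 is a receptor held in alpha granule membranes and brought to the platelet surface on activation. The genes lie on chromosomes 5 (Pf4 and Ppbp), 11 (Itga2b and Itgb3), 16 (Gp5), 6 (Gp9) and 17 (Treml1). Pf4 and Ppbp are neighbours in assembly GRCm38.p6, with start sites 3917 bases apart and 0 annotated genes starting between them.

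RefSeq promoter windows of GRCm38.p6, from 250 bases before to 50 after the start site, were at hand for 6 of the 7 genes, all but Itgb3. They were searched on both strands for short words of the factor families that act in megakaryocytes. GATA words (AGATAA or TGATAA or AGATAG or TGATAG) were found in 2 of the 6 windows, against 29.8% of 32851 mouse windows of the same length. ETS words (AGGAAG or CGGAAG) were found in 4 of the 6, against 46.5%. The RUNX word TGTGGT was found in 1 of the 6, against 16.8%, and the NF-E2 word TGAGTCA in 0 of the 6, against 5.2%. The words did not overlap one another in these windows, and a match describes the letters only. The 250 bases before the start site are shown for the 4 genes with a GATA or ETS match there, to place the words in their sequence. Capitals mark the GATA and ETS words, on either strand. The stretches are Pf4 at chr5:90772185-90772434 (plus strand), Itga2b at chr11:102469884-102470133 (minus strand), Gp5 at chr16:30310782-30311031 (minus strand) and Gp9 at chr6:87777820-87778069 (plus strand).
Pf4: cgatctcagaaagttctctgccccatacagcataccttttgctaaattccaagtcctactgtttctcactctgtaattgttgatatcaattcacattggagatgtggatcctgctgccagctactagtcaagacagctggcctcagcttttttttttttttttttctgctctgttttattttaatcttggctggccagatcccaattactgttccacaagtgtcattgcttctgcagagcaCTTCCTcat
Itga2b: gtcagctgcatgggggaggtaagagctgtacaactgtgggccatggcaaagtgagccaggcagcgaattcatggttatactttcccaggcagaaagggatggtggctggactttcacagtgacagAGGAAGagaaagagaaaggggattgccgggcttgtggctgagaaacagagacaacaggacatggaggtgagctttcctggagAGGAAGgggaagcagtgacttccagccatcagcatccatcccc
Gp5: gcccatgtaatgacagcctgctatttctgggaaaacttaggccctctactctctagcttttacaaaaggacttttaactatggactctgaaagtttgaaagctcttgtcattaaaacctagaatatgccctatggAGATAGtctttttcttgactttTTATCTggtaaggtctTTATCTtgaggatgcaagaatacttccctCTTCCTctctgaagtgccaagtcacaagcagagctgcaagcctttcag
Gp9: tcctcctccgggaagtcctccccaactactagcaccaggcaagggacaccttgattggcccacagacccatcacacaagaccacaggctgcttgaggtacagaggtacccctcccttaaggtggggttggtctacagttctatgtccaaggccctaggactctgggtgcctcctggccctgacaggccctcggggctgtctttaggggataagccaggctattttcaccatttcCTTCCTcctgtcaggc
The Gp5 window held 3 GATA words, which begin at positions -115, -93 and -77 from the start site, and an ETS word at -48. The Pf4 window held its ETS word at -9 and its GATA word after the start site, at position 37. Itga2b had ETS words at -125 and -43, and Gp9 had one at -16 with the RUNX word at -171. The windows of Ppbp and Treml1 held none of the words.

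In 2 arrays the Nkx2-5 or Smarca4 signal went against the labelled genotype. Nkx2-5+/- replicate 3 had an Nkx2-5 signal of 9.40, against 8.48 to 8.63 in the other 3 arrays with this label, and a Smarca4 signal of 9.57, against 9.89 to 10.08 in those 3. Tbx5+/-;Brg1+/- replicate 3 had a Smarca4 signal of 10.01, against 9.51 and 9.64 in the other 2 arrays with that label. Groups that hold these arrays are therefore called by their labels, and the main results that rest on them are also given without them. Nkx2-5+/-;Brg1+/- replicate 2 had an Nkx2-5 signal of 9.24, inside the wild-type range of 9.17 to 9.96, while replicates 1 and 3 had 9.03 and 8.85. The Nkx2-5 signal thus did not clearly bear out the label of replicate 2, which was kept. In this group Nkx2-5 had a log2 fold change over wild type of -0.555 (95% interval -0.937 to -0.172, limma adjusted p = 0.521). Brg1+/- replicate 2 had an Nkx2-5 signal of 8.99, below the wild-type range and inside that of the Nkx2-5+/-;Brg1+/- arrays. Its label, too, was not clearly borne out by Nkx2-5 and was kept. It was the highest of all 27 arrays for Pf4. Tbx5 had signals of 8.80, 8.88, 8.51, 8.90 and 8.89 in arrays labelled Tbx5+/- and of 8.63, 8.70 and 8.5 in those labelled Tbx5+/-;Brg1+/-, against 8.40 to 8.96 in the 6 wild-type arrays. Its log2 fold change over wild type was 0.23 with the label Tbx5+/- (95% interval -0.02 to 0.48, limma adjusted p = 1) and 0.05 with the label Tbx5+/-;Brg1+/- (-0.25 to 0.34). The Tbx5 signal was thus not lower in either group labelled with its deletion, so it does not bear out the labels on which every Tbx5 direction below rests. It was lower in groups without that label. Over wild type, Tbx5 stood at -0.45 in Brg1+/- arrays (limma adjusted p = 0.328), each of which lay below each wild-type array. It stood at -0.49 in arrays labelled Nkx2-5+/- (limma adjusted p = 0.0225) and at -0.06 in those labelled Nkx2-5+/-;Brg1+/-. Whether its probe set lies in the deleted part was not tested. Smarca4 averaged 9.32 ± 0.13 in Brg1+/- hearts and 10.07 ± 0.07 in wild type (SD, n = 6 each). The heart muscle genes Tnnt2 and Actc1 had signals of at least 12.18 and 13.71 on all 27 arrays.

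For Pf4, Brg1+/- arrays had a lowest, median and highest log2 signal of 8.0, 8.41 and 8.76, against 7.05, 7.69 and 8.26 in wild type. The Tbx5+/- arrays had 7.71, 7.53, 7.44, 7.07 and 6.47, and the Nkx2-5+/- arrays had 8.75, 7.98, 6.12 and 7.88. Compound arrays had 8.45, 7.01 and 7.93 with the label Tbx5+/-;Brg1+/- and 8.49, 6.94 and 8.62 with the label Nkx2-5+/-;Brg1+/-. The Brg1+/- arrays overlapped the upper part of the wild-type range and reached above it. The Nkx2-5+/- arrays spanned nearly the whole range of the study, and in each compound group 1 array lay far below the others.

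Ppbp had a lowest, median and highest signal of 8.72, 9.84 and 10.36 in Brg1+/- arrays, against 8.39, 9.06 and 10.01 in wild type. It had 9.35, 9.15, 8.84, 8.24 and 8.03 in Tbx5+/- arrays and 10.18, 9.09, 6.2 and 9.29 in Nkx2-5+/- arrays. Compound arrays had 9.88, 8.45 and 9.41 (Tbx5+/-;Brg1+/-) and 9.75, 8.11 and 9.91 (Nkx2-5+/-;Brg1+/-). The value 6.2, in Nkx2-5+/- replicate 3, was the lowest of all 27, and the next lowest was 8.03. The whole range of Ppbp spanned 17.8-fold, the widest of the 7 genes, and the narrowest was that of Gp5 with 2.86-fold.

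Itga2b had a lowest, median and highest signal of 8.05, 8.36 and 8.78 in Brg1+/- arrays, against 7.54, 8.01 and 8.35 in wild type. It had 8.46, 7.78, 7.78, 7.55 and 7.29 in Tbx5+/- arrays and 9.36, 8.74, 7.35 and 8.55 in Nkx2-5+/- arrays. Compound arrays had 8.18, 7.62 and 8.33 (Tbx5+/-;Brg1+/-) and 8.5, 7.28 and 8.55 (Nkx2-5+/-;Brg1+/-). Of the Nkx2-5+/- arrays, 3 lay above every wild-type array and replicate 3 lay below all of them. Its partner Itgb3 averaged 8.88 ± 0.24 in Brg1+/- arrays (SD, n = 6), 8.35 ± 0.31 in Tbx5+/- (n = 5), 8.98 ± 0.68 in Nkx2-5+/- (n = 4), 8.61 ± 0.40 in Tbx5+/-;Brg1+/- (n = 3), 8.92 ± 0.82 in Nkx2-5+/-;Brg1+/- (n = 3) and 8.51 ± 0.30 in wild type (n = 6).

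Gp9 had a lowest, median and highest signal of 7.39, 7.87 and 8.27 in Brg1+/- arrays, against 7.19, 7.47 and 7.74 in wild type. It had 7.82, 7.55, 7.48, 7.11 and 6.90 in Tbx5+/- arrays and 8.81, 8.18, 6.66 and 7.76 in Nkx2-5+/- arrays. Compound arrays had 7.95, 6.93 and 7.77 (Tbx5+/-;Brg1+/-) and 7.83, 7.05 and 8.02 (Nkx2-5+/-;Brg1+/-). As with Itga2b, 3 Nkx2-5+/- arrays lay above the wild-type range and replicate 3 below it. Gp5 averaged 7.04 ± 0.24 in Brg1+/- arrays (SD, n = 6), 6.51 ± 0.26 in Tbx5+/- (n = 5), 7.04 ± 0.62 in Nkx2-5+/- (n = 4), 6.70 ± 0.35 in Tbx5+/-;Brg1+/- (n = 3), 7.03 ± 0.49 in Nkx2-5+/-;Brg1+/- (n = 3) and 6.79 ± 0.22 in wild type (n = 6).

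Treml1 had a lowest, median and highest signal of 7.81, 7.85 and 8.09 in Brg1+/- arrays, against 7.41, 7.54 and 7.95 in wild type. It had 7.68, 7.56, 7.62, 7.68 and 7.25 in Tbx5+/- arrays and 8.79, 8.08, 7.20 and 8.24 in Nkx2-5+/- arrays. Compound arrays had 8.11, 7.46 and 7.80 (Tbx5+/-;Brg1+/-) and 8.38, 7.55 and 8.24 (Nkx2-5+/-;Brg1+/-). The Brg1+/- arrays lay close together, and a single wild-type array, at 7.95, reached into their range.

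**Figure D1:**
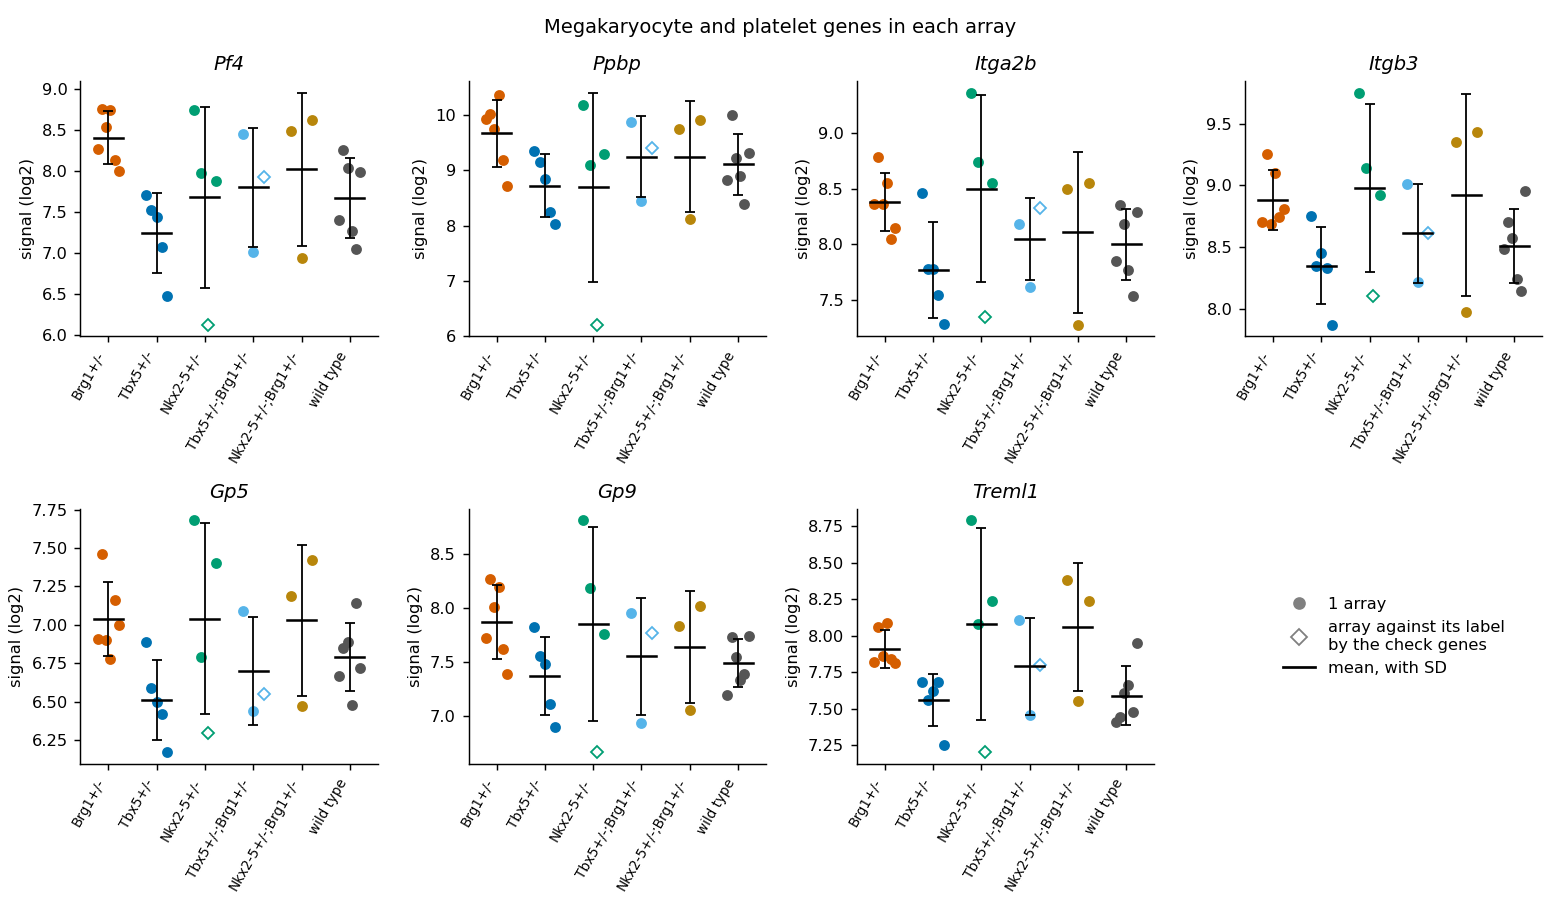
Signal of each of the 7 genes on the 27 arrays (vertical axis, log2 signal; horizontal axis, genotype group). Each point is 1 array, bars are the group mean with SD, and open diamonds are the 2 arrays whose Nkx2-5 or Smarca4 signal went against their labels. Nkx2-5+/- replicate 3 is the lowest of all arrays for 4 genes, with Ppbp at 6.2.

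By group mean, Brg1+/- was highest for 4 of the 7 genes (Pf4, Ppbp, Gp5 and Gp9) and Nkx2-5+/- for 3 (Itga2b, Itgb3 and Treml1). Tbx5+/- was lowest for 6, and for Ppbp the lowest was Nkx2-5+/-. Wild type stood next to lowest for 5 of the 7. The ranges of neighbouring groups in this order overlapped in all 35 pairs, 5 for each gene. Neighbours in an order of means are likely to overlap, so this does not measure the steps against the spread between arrays. The mean of the 7 genes was 8.31 ± 0.26 in Brg1+/- arrays (SD, n = 6), 8.15 ± 0.70 in Nkx2-5+/-;Brg1+/- (n = 3), 8.12 ± 0.92 in Nkx2-5+/- (n = 4), 7.96 ± 0.47 in Tbx5+/-;Brg1+/- (n = 3), 7.65 ± 0.36 in Tbx5+/- (n = 5) and 7.88 ± 0.26 in wild type (n = 6). Without replicate 3, which went against its label, the Nkx2-5+/- mean of the 7 genes was 8.54, and the order by gene changed. The Nkx2-5+/- means of Gp5 and Gp9 were then 7.29 and 8.25, above the 7.04 and 7.87 of Brg1+/- arrays. Brg1+/- stayed highest for Pf4 and Ppbp. The Nkx2-5+/- mean of Ppbp was then 9.52, so Tbx5+/-, at 8.72, was lowest for Ppbp as well.

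The comparison of Brg1+/- with wild-type hearts asked what the loss of 1 copy of Brg1 does to these genes. All 7 had higher means in Brg1+/- hearts, but 0 of 7 passed the test (limma, adjusted p under 0.05 over 19935 genes), and 1 of 7 had an unadjusted p under 0.05, as did 9.71% of all genes. In this comparison 0.01% of all genes passed in either direction, and 43.7% of all genes had a log2 fold change above 0. The median log2 fold change was 0.38 over the 7 genes and -0.02 over all genes. In bulk tissue such as this, fewer cells of a type and less RNA per cell cannot be told apart. Pf4 stood at 0.74 (SE 0.34, limma adjusted p = 0.486), with a 95% interval of 0.05 to 1.43. Ppbp stood at 0.56 (interval -0.37 to 1.48), Itga2b at 0.38 (-0.14 to 0.90), Itgb3 at 0.37 (-0.11 to 0.84), Gp5 at 0.24 (-0.14 to 0.63), Gp9 at 0.38 (-0.13 to 0.89) and Treml1 at 0.32 (-0.04 to 0.68). The intervals of the 6 genes other than Pf4 include 0 and also differences of more than 0.6 on the log2 scale.

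Beside these values, red blood cell genes stood higher in the same hearts. All 15 genes of an erythroid list had a log2 fold change above 0, with a median of 0.90 and 0 past the test, and the mean of the list ran from 8.96 to 10.78 in Brg1+/- arrays, against 8.51 to 10.07 in wild type. With the erythroid mean as a covariate the median over the 7 genes was -0.0041, with Pf4 at 0.10 and Ppbp at -0.32. The macrophage list, which holds Csf1r and Adgre1, stood lower, with 1 of 15 genes above 0 and 0 past the test. Its list mean was 5.84 to 6.18 in Brg1+/- arrays, against 6.01 to 6.47 in wild type. This was not particular to macrophages: 0 of 8 endothelium, 0 of 7 liver and 1 of 9 heart muscle genes were above 0. In each of these lists, too, 0 genes passed (limma). The part of these cell types in the values of the 7 genes was not tested further.

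In arrays labelled Tbx5+/-, whose Tbx5 signal was not lower, all 7 genes had lower means than in wild type, and 0 of 7 passed (limma, with 0% of all genes called). At an unadjusted p under 0.05 there were 0 of 7, against 3.95% of all genes. The median log2 fold change was -0.23 over the 7 genes and 0.01 over all genes, of which 52% were above 0. The chemokine genes Pf4 and Ppbp stood at -0.43 (SE 0.35, 95% interval -1.15 to 0.30) and -0.39 (-1.35 to 0.58), the integrin genes Itga2b and Itgb3 at -0.23 (-0.77 to 0.32) and -0.16 (-0.66 to 0.33). Gp5 stood at -0.28 (-0.68 to 0.13), Gp9 at -0.12 (-0.65 to 0.42) and Treml1 at -0.03 (-0.41 to 0.34), and the limma adjusted p was 1 for each gene after rounding. The values of Gp9 and Treml1 were above 0 without Tbx5+/- replicate 5, at 0.0019 and 0.04, and that of Treml1 also without wild-type replicate 6. The erythroid list stood close to wild type here, with a median of 0.08. This comparison and those that follow against wild type use the same 6 wild-type arrays as the first, so they are not independent of it.

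In arrays labelled Nkx2-5+/-, 0 of 7 genes passed against wild type (limma), with 1 of 7, Treml1, at an unadjusted p under 0.05, against 22.3% of all genes. In this comparison 7.89% of all genes passed, and 6 of the 7 values were above 0, against 47.6% of all genes. Treml1 stood at 0.49 (SE 0.20, limma adjusted p = 0.128), Itga2b at 0.50 (SE 0.28, adjusted p = 0.305), Itgb3 at 0.47 (SE 0.26, adjusted p = 0.299), Gp9 at 0.37 (SE 0.28, adjusted p = 0.491) and Gp5 at 0.25 (SE 0.21, adjusted p = 0.538). The chemokine genes stood apart from these, with Pf4 at 0.01 (95% interval -0.76 to 0.78) and Ppbp at -0.42 (-1.45 to 0.61). The median over the 7 genes was 0.37, against -0.01 over all genes.

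These values depended on single arrays, with a median over the 7 genes of 0.05 to 0.76 when 1 array was left out. Nkx2-5+/- replicate 3, which went against its label, was the lowest of all 27 arrays for Pf4, Ppbp, Gp9 and Treml1, while replicate 1 of the same group was the highest of all for Itga2b, Itgb3, Gp5, Gp9 and Treml1. Replicate 3 also had the highest heart muscle list mean of all 27 arrays, at 12.49, against 11.68 in replicate 1, the next highest of its label. The mean of the 7 genes ran against that list mean (Pearson r = -0.61, and -0.23 without replicate 3). Results without replicate 3 are therefore not independent of heart muscle signal, whose part in them was not tested. Without replicate 3, 4 of the 7 genes rose against wild type, where 6.64% of all genes were called higher and 21.9% in either direction. Itga2b rose by 0.89 (SE 0.26, limma adjusted p = 0.013), or 1.85-fold. Treml1 rose by 0.78 (SE 0.17, limma adjusted p = 0.0013), or 1.72-fold, Gp9 by 0.76 (SE 0.25, adjusted p = 0.0264) and Itgb3 by 0.76 (SE 0.25, adjusted p = 0.0301). For Itga2b, Gp9 and Treml1 each of the 3 arrays left lay above each wild-type array, which held for 6.12% of all genes. The other 3 genes did not pass, with Gp5 at 0.50 (adjusted p = 0.0785), Pf4 at 0.53 (adjusted p = 0.298) and Ppbp at 0.41 (adjusted p = 0.525). With all 4 arrays kept and arrays weighted by their agreement with the fit, 2 of the 7 passed, Itga2b (adjusted p = 0.0368) and Treml1 (adjusted p = 0.0071), where 18.8% of all genes did. Replicate 3 then had a weight of 0.179, against 0.765, 0.679 and 1.1 for replicates 1, 2 and 4. These 2 calls are therefore not independent of those made without replicate 3.

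The red cell genes were high in the same 3 arrays. The erythroid list mean lay between 10.85 and 11.01 in Nkx2-5+/- replicates 1, 2 and 4 and was 9.0 in replicate 3, against 8.51 to 10.07 in wild type, and with all arrays 5 of its 15 genes rose, where 2.72% of all genes did. Without replicate 3 all 15 rose, with a median log2 fold change of 1.94, where 6.64% of all genes did. Of the 9 heart muscle genes 6 fell with all arrays, with a median of -0.47, where 5.16% of all genes did, and 8 without replicate 3, with a median of -0.60, where 15.3% did. The macrophage list stood lower, with 3 of 15 genes that fell, a median of -0.27 and a list mean of 5.50 to 6.16, against 6.01 to 6.47 in wild type. Without replicate 3, 1 of its 15 genes fell and the median was -0.19. With the erythroid mean as a covariate the median over the 7 megakaryocyte genes was -0.23, and 0 of 7 passed (limma). The part of red cell content in the Nkx2-5+/- values was not tested beyond this.

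**Figure D2:**
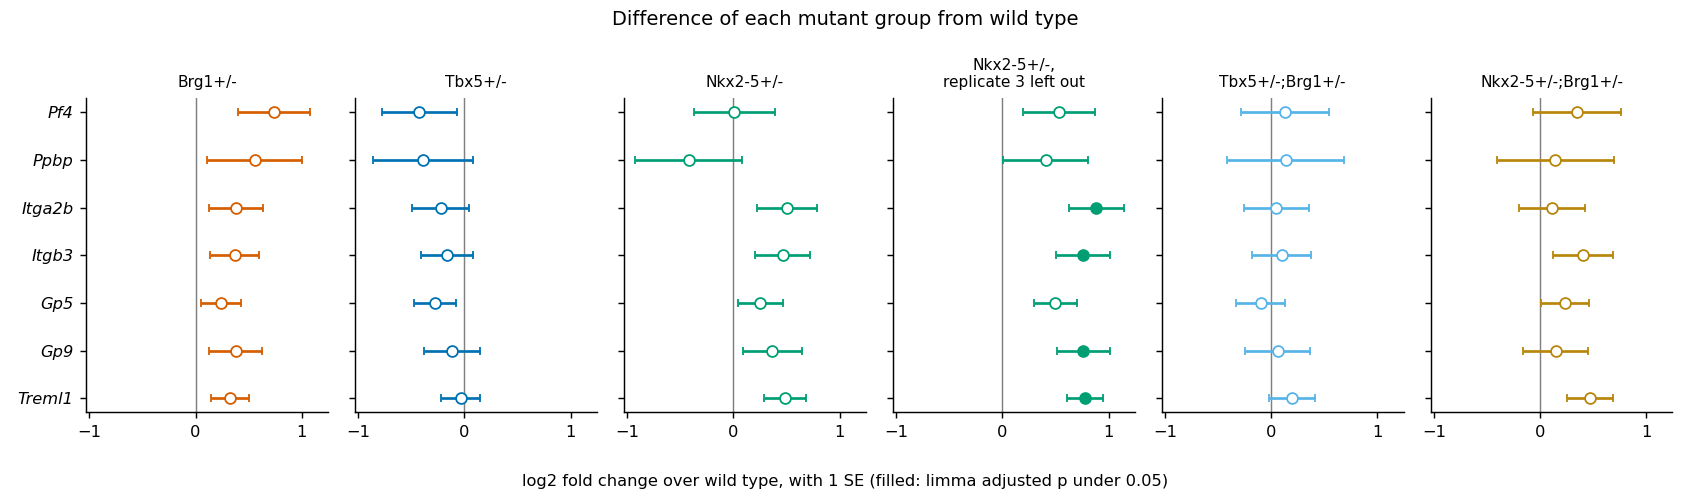
Log2 fold change of each gene over wild type (horizontal axis) with 1 SE, by mutant group, and for Nkx2-5+/- also with replicate 3 left out. Filled points passed at a limma adjusted p under 0.05, which only Itga2b, Itgb3, Gp9 and Treml1 did, with replicate 3 left out.

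In arrays labelled Nkx2-5+/-;Brg1+/-, all 7 genes had higher means than wild type, and 0 of 7 passed (limma), with 0.0351% of all genes called. At an unadjusted p under 0.05 there was 1 of 7, Treml1, against 7.39% of all genes. The median log2 fold change was 0.23 over the 7 genes and -0.02 over all genes, of which 45.9% were above 0. Treml1 stood at 0.47 (SE 0.22, limma adjusted p = 0.655), Itgb3 at 0.40 (95% interval -0.18 to 0.98), Pf4 at 0.35 (-0.50 to 1.19) and Gp5 at 0.23 (-0.24 to 0.71). Gp9 stood at 0.15, Ppbp at 0.14 and Itga2b at 0.12, and these 3 values were below 0 without replicate 3, as were those of Ppbp and Itga2b without replicate 1. The erythroid list went the other way here, with 1 of 15 genes above 0, a median of -0.27 and 0 past the test. With the erythroid mean as a covariate the median over the 7 genes was 0.35. Replicate 2 was the lowest array of its group for all 7 genes, and its erythroid list mean of 8.11 was also the lowest of the 3. Without it the median over the 7 genes was 0.72, and 0 of 7 passed. With array weights 2 of 7 passed, Treml1 at 0.72 (adjusted p = 0.0070) and Itgb3 at 0.74 (adjusted p = 0.0272), where 5.8% of all genes did. Replicate 1 then had a weight of 5.43, against 0.618 for replicate 2 and 0.756 for replicate 3. These 2 calls therefore rest mostly on replicate 1.

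The arrays labelled Tbx5+/-;Brg1+/- gave 0 of 7 genes past the test against wild type (limma, with 0% of all genes called). At an unadjusted p under 0.05 there were 0 of 7, against 4.38% of all genes. The median was 0.10, with values from -0.10 to 0.20, and 6 of the 7 above 0, against 54.2% of all genes. Without replicate 3, which went against its label, the median was 0.05 with 4 of 7 above 0. With all 3 arrays and against the arrays labelled Tbx5+/- alone, the median was 0.26, with values from 0.18 (Gp9) to 0.56 (Pf4), 7 of 7 above 0 where 50.1% of all genes were, and 0 of 7 past the test (limma, with 0% of all genes called). At an unadjusted p under 0.05 there were 0 of 7, against 2.48% of all genes. Without replicate 3 the values against Tbx5+/- ran from 0.07 (Gp9) to 0.49 (Pf4), with a median of 0.25 and 0 of 7 past the test.

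Against Nkx2-5+/- alone, the Nkx2-5+/-;Brg1+/- arrays had a median of -0.02 over the 7 genes, with 2 of 7 above 0, against 53.4% of all genes, and 0 of 7 past the test (limma). In that comparison 0.0401% of all genes passed. An unadjusted p under 0.05 was found for 0 of 7, against 15.4% of all genes. Without Nkx2-5+/- replicate 3 all 7 were below 0, with a median of -0.31 and again 0 of 7 past the test, where 11.6% of all genes passed.

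The interaction of Brg1 with each factor subtracts the Brg1 effect measured in arrays without a label for the factor's deletion from that measured in arrays with one. For Tbx5 all 7 values were below 0, from -0.20 to -0.03, against 57.5% of all genes above 0, with 0 of 7 past the test (limma, 0% of all genes called) and 0 of 7 at an unadjusted p under 0.05, against 3.04% of all genes. Without Tbx5+/-;Brg1+/- replicate 3 the value of Gp5 was 0.01 and the other 6 were below 0. For Nkx2-5 the median was -0.40, with 0 of 7 past the test (limma), where 4.95% of all genes passed, and 1 of 7 above 0, against 54.5% of all genes. An unadjusted p under 0.05 was found for 0 of 7, against 20.2% of all genes. Itga2b stood at -0.77 (SE 0.42, limma adjusted p = 0.317), Gp9 at -0.60, Itgb3 at -0.43, Pf4 at -0.40, Treml1 at -0.34, Gp5 at -0.26 and Ppbp at 0.01. Without Nkx2-5+/- replicate 3, Itga2b had an interaction of -1.15 (SE 0.36, limma adjusted p = 0.0292). It was the 1 gene of the 7 to pass, where 5.57% of all genes were called below 0 and 16.2% in either direction. Gp9 then stood at -0.99 (adjusted p = 0.0519) and Treml1 at -0.64 (adjusted p = 0.0687).

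With all arrays, the mean values of Brg1+/- arrays and of arrays labelled Tbx5+/- stood at opposite ends of the order for 3 of the 7 genes (Pf4, Gp5 and Gp9). Without Nkx2-5+/- replicate 3 this held for Pf4 and Ppbp. The comparison of these groups was added after the values were seen. Its p-values and shares of all genes therefore cannot be read as those of a planned comparison. Tbx5 itself stood at -0.68 in Brg1+/- arrays against arrays labelled Tbx5+/- (limma adjusted p = 0.0232). Pf4 had a lowest, median and highest signal of 8.0, 8.41 and 8.76 in Brg1+/- arrays, against 7.71, 7.53, 7.44, 7.07 and 6.47 in Tbx5+/- arrays. For Pf4 and Treml1 every Brg1+/- array lay above every Tbx5+/- array, which held for 0.557% of all genes. All 7 genes had higher means in Brg1+/- hearts, with log2 fold changes from 0.36 (Treml1) to 1.16 (Pf4) and a median of 0.53, where 44.6% of all genes were above 0. Of the 7, 0 passed (limma, adjusted p), where 0.0251% of all genes did, and 4 had an unadjusted p under 0.05, as did 14.1% of all genes, 4.71% in the same direction. Pf4 had an SE of 0.35 and a limma adjusted p of 0.176. With array weights Pf4 (adjusted p = 0.024) and Gp5 (adjusted p = 0.048) passed, where 4.65% of all genes did. With the arrays of the compared groups alone Pf4 passed (adjusted p = 0.0444), where 0.15% of all genes did. The erythroid list mean ran from 8.96 to 10.78 in Brg1+/- arrays, against 8.53 to 10.06 in Tbx5+/- arrays. With that mean as a covariate the median over the 7 genes was 0.16.

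Other genes of the megakaryocyte were set beside the 7 as 4 lists: receptors (16 measured of 21 listed), granule and secreted proteins (13 of 14), signalling and cytoskeleton (16 of 17) and transcription regulators (13 of 14). In Brg1+/- hearts 0 genes of the 4 lists passed against wild type (limma, adjusted p), and the medians were 0.03, 0.04, 0.09 and 0.19 in that order, against -0.02 over all genes. Unadjusted p was under 0.05 for 0 of 16 receptors, 1 of 13 granule genes, 1 of 16 signalling genes and 5 of 13 regulators, against 9.71% of all genes. Gata1, the factor that megakaryocytes share with red cells, stood at 1.23 (SE 0.40, adjusted p = 0.409) and Tal1, another shared factor, at 0.74 (adjusted p = 0.427). F13a1, the clotting factor XIII A subunit that macrophages also make, stood at -0.71 (adjusted p = 0.43), and Plek, the main protein kinase C substrate of platelets, at 0.50 (adjusted p = 0.556). Rgs18, a regulator of G protein signalling in platelets, stood at 0.72 (adjusted p = 0.473) and the GTPase activator gene Arhgap6 at -0.20 (adjusted p = 0.569). The ADP receptor P2ry1 stood at 0.20 (adjusted p = 0.527) and the thrombin receptor F2rl2 at 0.44 (adjusted p = 0.566).

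In arrays labelled Nkx2-5+/-, 5 of 13 regulators rose against wild type, where 2.72% of all genes were called higher, and the list median was 0.52. Gata1 rose by 1.74 (SE 0.45, limma adjusted p = 0.0205), Gfi1b, a repressor needed in megakaryocytes and red cells, by 1.30 (adjusted p = 0.0225), Tal1 by 1.10 (adjusted p = 0.0255) and Lyl1, a relative of Tal1, by 0.73 (adjusted p = 0.037). These 4 factors act in red cell formation as well. Of the 13 granule genes, 2 fell, where 5.16% of all genes were called lower: Angpt1, an angiopoietin that heart muscle and other cells also make, by 0.78 (adjusted p = 0.012) and Clu, a secreted chaperone of many tissues, by 0.72 (adjusted p = 0.0211). Of the receptors and of the signalling genes 0 of 16 passed in each (limma), with 3 and 2 at an unadjusted p under 0.05, against 22.3% of all genes. Among them Ptger3, a prostaglandin receptor, stood at -0.31 (adjusted p = 0.132), P2ry1 at 0.27 (adjusted p = 0.141), the caveola protein gene Cavin2 at -0.40 (adjusted p = 0.0916) and Arhgap6 at -0.29 (adjusted p = 0.152).

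These calls did not hold in every setting. With the arrays of the compared groups alone the fold changes were the same but 0 of the 6 named genes passed (adjusted p = 0.0922 to 0.167), and with the erythroid mean as a covariate Gata1 stood at 0.39 (adjusted p = 0.506). Leaving out Nkx2-5+/- replicate 2 ended all 6 calls, with Gata1 at 1.48, and replicate 4 did so too, with Gata1 at 1.69. Leaving out Nkx2-5+/- replicate 1 ended the calls of Gata1, Gfi1b, Tal1 and Lyl1. At least 1 of these 4 calls ended without wild-type replicate 1, 4, 5 or 6, and that of Clu without wild-type replicate 4. Without Nkx2-5+/- replicate 3, 8 of 13 regulators rose and 1 fell, and Gata1 stood at 2.14 (adjusted p = 0.0014). In the same setting 2 of 16 receptors rose, 2 of 13 granule genes rose and 2 fell, and 2 of 16 signalling genes rose and 2 fell, where 6.64% of all genes rose and 15.3% fell.

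In the interaction of Nkx2-5 with Brg1, 4 of the 13 regulators passed, all below 0, where 2.72% of all genes were called below 0. Gata1 stood at -2.81 (SE 0.67, limma adjusted p = 0.0216), Gfi1b at -2.07 (adjusted p = 0.0239), Tal1 at -1.79 (adjusted p = 0.024) and Lyl1 at -1.21 (adjusted p = 0.0289). The erythroid list moved with them, with 13 of 15 genes called below 0 and a median of -2.52. Without Nkx2-5+/- replicate 3, 8 of the 13 regulators were called below 0 and 1 above, where 5.57% of all genes were called below 0 and 10.6% above. All 15 erythroid genes were then below 0 past the test, with a median of -3.08. With the erythroid mean as a covariate the 4 values lay between -0.30 and -0.12 and 0 of the 4 passed. Each call also ended with the arrays of the compared groups alone (adjusted p = 0.0505 to 0.0667) and without Nkx2-5+/- replicate 2, Nkx2-5+/-;Brg1+/- replicate 1 or Nkx2-5+/-;Brg1+/- replicate 2. That of Tal1 ended also without Nkx2-5+/- replicate 4, and that of Lyl1 without Nkx2-5+/- replicate 1 or 4 or Brg1+/- replicate 2. In the other 3 megakaryocyte lists 0 genes passed this interaction (limma), with 1 of 16 receptors, 0 of 13 granule genes and 5 of 16 signalling genes at an unadjusted p under 0.05, against 20.2% of all genes. When Nkx2-5+/- replicate 3 was left out, 3 signalling genes passed, which are named here after their values were seen: Gng11, a G protein subunit gene (0.74, adjusted p = 0.049), Arhgap6 (0.71, adjusted p = 0.0052) and Fermt3, an integrin activator of blood cells (-0.95, adjusted p = 0.0272).

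The 7 genes varied widely between arrays of the same label. Their SD within groups ran from 0.33 (Treml1) to 0.89 (Ppbp), against 0.19 for the median gene, which put them between the 94.8 and 99.9 percentiles of all genes. The share of variance between groups was 16.9% (Gp9) to 32.8% (Treml1), against 23.3% for the median gene. The SD without Nkx2-5+/- replicate 3 ran from 0.255 (Treml1) to 0.645 (Ppbp), against 0.18, at the 87.1 to 99.7 percentiles. The share between groups was then 24.8% (Ppbp) to 57.9% (Treml1), against 28.2% for the median gene. Deviations from the group means ran together: over the 27 arrays, Pearson r for the 21 pairs of genes lay between 0.70 and 0.95 with a median of 0.87. Without Nkx2-5+/- replicate 3 it lay between 0.55 and 0.94 with a median of 0.82. The neighbours Pf4 and Ppbp had r = 0.95, and Pf4 had the same r of 0.95 with Itga2b and with Gp9, which lie on other chromosomes. Gp5 was the least alike, with r between 0.70 and 0.75 to the other 6. All genes of an array share its RNA sample and hybridisation, so these values are descriptions.

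Among the 19928 other genes, 95 had r of at least 0.80 with the mean of the 7, and 15 without Nkx2-5+/- replicate 3, and the median r was -0.05. The 5 most alike were Plek (r = 0.97), Alox12, the platelet lipoxygenase (0.96), Clec1b, the podoplanin receptor of platelets (0.93), Tubb1, the beta tubulin of platelets (0.92), and Pls1, an actin bundling protein (0.92). Gene by gene, Plek or Alox12 came first for Pf4, Ppbp, Itga2b, Itgb3 and Treml1, the calcium pump gene Atp2a3 for Gp9 (0.92) and the thromboxane synthase gene Tbxas1 for Gp5 (0.83). Of the receptors 4 of 16 reached r of 0.80, of the granule genes 5 of 13, of the signalling genes 5 of 16 and of the regulators 0 of 13, where Lyl1 was highest with 0.78. The counts were 3, 3, 4 and 0 in that order without Nkx2-5+/- replicate 3, and Gata1 was the highest regulator with 0.60, while Lyl1 had 0.58.

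**Figure D3:**
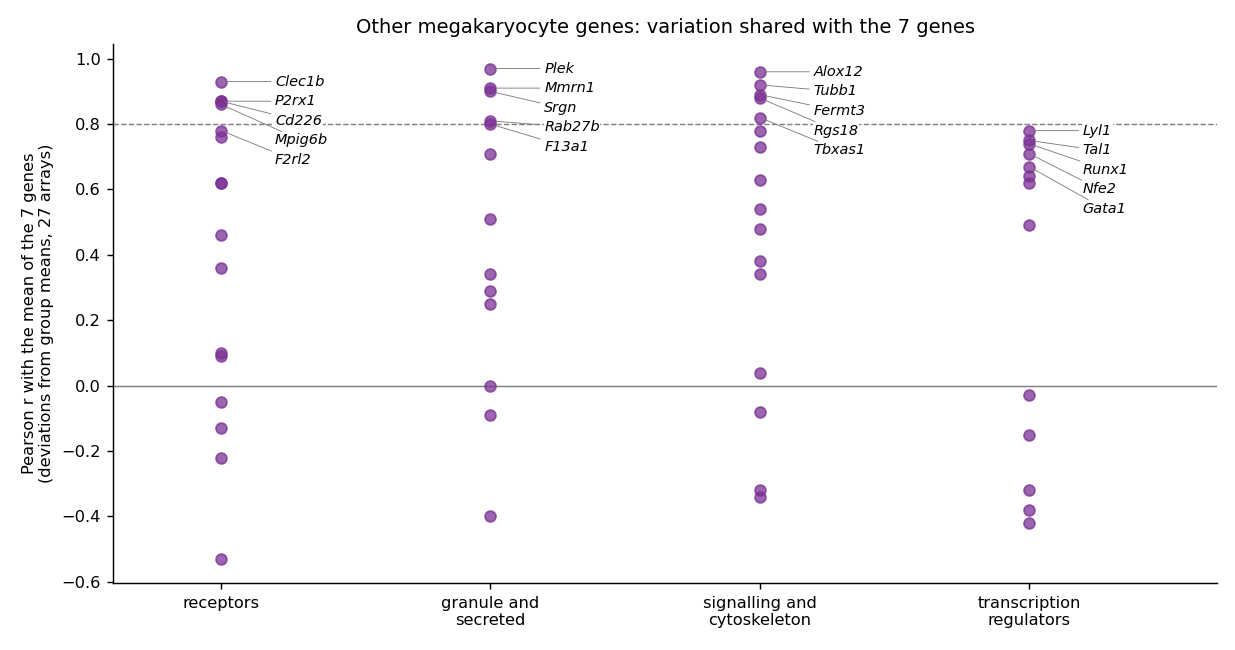
Pearson r of each further megakaryocyte gene with the mean of the 7 genes (vertical axis; deviations from group means, 27 arrays), by list. Each point is 1 gene, the 5 highest of each list are named, and the dashed line marks r = 0.80, which 0 of 13 regulators reach.

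Of the other blood lists, the erythroid mean was closest to the mean of the 7 genes, with r = 0.76 over the 27 arrays and 0.66 without Nkx2-5+/- replicate 3. By gene it was highest for Itga2b (0.84) and lowest for Gp5 (0.50) and Treml1 (0.52). The macrophage mean had r = 0.56, and 0.29 without that array, and was highest for Treml1 (0.74). The granulocyte and mast cell mean had 0.44 and 0.06, and the progenitor mean 0.32 and 0.19. The endothelium and liver means had -0.09 and 0.17. Heart muscle genes had -0.61, and -0.23 without that array. The defining granulocyte and mast cell genes Mpo and Cpa3 were at most 6.40 and 5.02 on any array, while the red cell gene Alas2 was at least 9.77. These signals have no true zero, so no marker can be called absent.

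**Figure D4:**
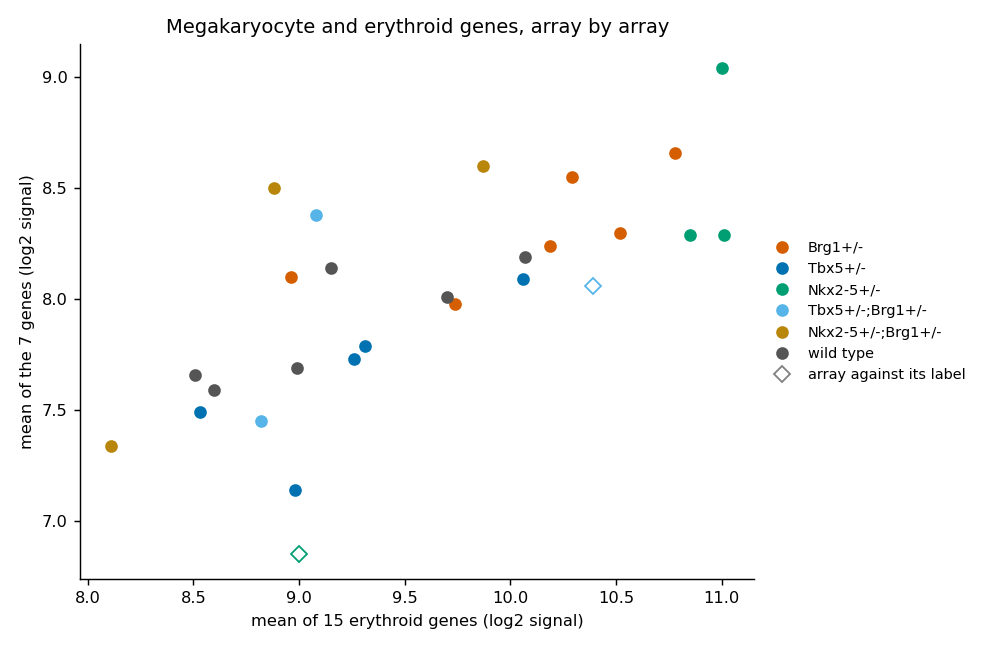
Mean of the 7 genes (vertical axis, log2 signal) against the mean of 15 erythroid genes (horizontal axis, log2 signal), 1 point per array, coloured by genotype, with open diamonds for the 2 arrays whose Nkx2-5 or Smarca4 signal went against their labels. Arrays rich in erythroid signal tend to be high in the 7 genes, and Nkx2-5+/- replicate 3 is lowest on the vertical axis at 6.85.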

How the data were processed

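The deposited values are log2 signals. The submitters' processing notes name RMA and Affymetrix Power Tools, without versions, as what the authors used. The table holds 28815 probe sets on 27 arrays and was used without further normalization. Array medians lay between 6.181 and 6.328, and arrays give no counts, so their number limits the precision. Of the probe sets 21780 had 1 symbol, 1605 had several and 5430 were not listed in the platform annotation. Only the first kind was used. Where a gene had more than 1 such probe set (998 genes), its brightest by mean stood for it, giving 19935 genes. Groups came from the genotypes in the labels, which give no batch.

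Differences were fitted in R 4.3.3 using limma 3.58.1. The model had group means over all 27 arrays and an empirical Bayes prior (21 residual and 6.71 prior degrees of freedom). Adjusted p is Benjamini-Hochberg over 19935 genes within a comparison, two-sided, with a threshold of 0.05, and the fit was tested on simulated data. "Rose" and "fell" are used of genes past that threshold. The genes, lists and tests were chosen with earlier results of these data known. The 7 genes are given in each comparison. From each further megakaryocyte list, up to 4 genes that passed with the smallest p are named, or the 2 with the smallest p as values. Likeness is Pearson r of deviations from group means, and clone, predicted and accession-like names were left out of the named genes. Alternatives were a further quantile normalization, a filter on dim genes (lowest 33%), a prior with trend and robust estimation, the compared groups' arrays alone, probe sets averaged per gene, a block for the replicate number, array weights, the erythroid mean as a covariate, the arrays against their labels left out together, and each array left out in turn. Listed genes with no single-symbol probe set were not analysed here. Promoters came from RefSeq, build GRCm38.p6. The labels name no build, so gene coordinates are not given. Figures were drawn with matplotlib 3.10.9.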

Additional observations from a re-analysis of the deposited data

Results flagged for a closer look

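Of 28 sets of 1 gene in 1 group of 4 to 6 arrays, 1 held an array far from the others: Treml1 in Tbx5+/- replicate 5, at 7.25 with the other 4 between 7.56 and 7.68. Chance sets apart about 1 in 20 such sets. The same array was the lowest of its group for all 7 genes. Without it the log2 fold change of Treml1 against wild type was 0.04.

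The effect of Brg1 loss differed by a test of the interaction between arrays with and without the label Nkx2-5+/- for 4 of 13 regulators, which megakaryocytes and red cells share. The differences were -2.81 for Gata1, -2.07 for Gfi1b, -1.79 for Tal1 and -1.21 for Lyl1 on the log2 scale (limma adjusted p = 0.0216, 0.0239, 0.024 and 0.0289). The erythroid list went the same way, with 13 of 15 genes below 0 past the test and a median of -2.52. Of all genes 4.95% passed this interaction in either direction, and 2.72% were called below 0. The 4 calls ended with the erythroid mean as a covariate, with the arrays of the compared groups alone (adjusted p = 0.0505 to 0.0667), and without Nkx2-5+/- replicate 2 or Nkx2-5+/-;Brg1+/- replicate 1 or 2. Of the 7 megakaryocyte markers 0 passed the same test with all arrays (limma). At an unadjusted p under 0.05 there were 0 of 7, against 20.2% of all genes. Without Nkx2-5+/- replicate 3, whose Nkx2-5 signal went against its label, Itga2b passed (-1.15, adjusted p = 0.0292), as did 16.2% of all genes. Gp9 then stood at -0.99 (adjusted p = 0.0519).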

How the results depend on the processing

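Of 882 values of the 7 genes recomputed under alternatives, 49 changed sign, and 8 of 206 counts of the 7 genes called were not 0. With the erythroid mean as a covariate, values changed sign in Brg1+/- against wild type for Ppbp (-0.32), Itga2b (-0.14), Itgb3 (-0.0041) and Gp9 (-0.084). In Nkx2-5+/- against wild type they did so for Pf4 (-0.90), Itga2b (-0.23), Itgb3 (-0.064), Gp5 (-0.069) and Gp9 (-0.30), with a median of -0.23. In the interaction of Nkx2-5 with Brg1 they did so for Pf4 (1.31), Itga2b (0.60), Itgb3 (0.56), Gp5 (0.34), Gp9 (0.64) and Treml1 (0.23), with a median of 0.60. The median of Nkx2-5+/-;Brg1+/- against Nkx2-5+/- was then 0.55. Ppbp changed sign with array weights (0.25 in Nkx2-5+/- against wild type and -0.20 in the interaction), with both arrays against their labels left out (0.41 and -0.82) and, in the interaction, with a further quantile normalization (-0.013). The cause of these changes was not tested. Members called in Nkx2-5+/- against wild type were 2 with array weights and 4 with both arrays left out, and 0 to 4 with 1 array left out. In these settings 3744, 4346 and 66 to 4368 of all genes were called, in that order. In Nkx2-5+/-;Brg1+/- against wild type 2 members were called with array weights, where 5.8% of all genes were. Replicate 1 had most of the weight in that group. In the interaction of Nkx2-5 with Brg1 1 member was called with both arrays left out, and 0 to 1 with 1 left out. Of all genes, 3258 and 6 to 3224 were called in those settings. In Brg1+/- against Tbx5+/- 2 members were called with array weights, where 4.65% of all genes were. With the arrays of the compared groups alone 1 member was called, where 0.15% of all genes were.

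With 1 array left out, values ranged in Tbx5+/- against wild type from -0.23 to 0.0019 for Gp9 and from -0.070 to 0.044 for Treml1. In Nkx2-5+/- against wild type they ranged from -0.35 to 0.53 for Pf4 and from -0.92 to 0.41 for Ppbp. In Nkx2-5+/-;Brg1+/- against wild type they ranged from -0.18 to 0.72 for Ppbp, from -0.11 to 0.53 for Itga2b and from -0.046 to 0.44 for Gp9. In the interaction of Nkx2-5 with Brg1 they ranged from -0.93 to 0.14 for Pf4, from -0.82 to 0.58 for Ppbp, from -0.72 to 0.046 for Itgb3 and from -0.51 to 0.015 for Gp5. The count of all genes called in Nkx2-5+/- against wild type was 1572, 66 to 4368 with 1 array left out, 3744 with array weights and 4 with the erythroid covariate. In the interaction it was 987, 6 to 3224 with 1 array left out, 4235 with array weights and 0 with the erythroid covariate.

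Replicate numbers recur across groups, but only 7 of 27 same-numbered pairs had deviations with a correlation over 0.1 (range -0.271 to 0.386), and in no comparison did every pair. With the replicate number as a block 0 of the 7 genes passed in any comparison (limma). In Nkx2-5+/- against wild type the block ended the calls of Gfi1b (adjusted p = 0.0516), Tal1 (adjusted p = 0.0753) and Lyl1 (adjusted p = 0.1). Under the block Pf4 stood at -0.14 in Nkx2-5+/- against wild type, where the median was 0.27, and Ppbp at -0.11 and Itga2b at -0.025 in Nkx2-5+/-;Brg1+/- against wild type. Groups of 3 to 6 arrays and a within-group SD of 0.33 to 0.89 limit the differences that these data can show.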
